A study of Mus musculus with 9 samples.

Results

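The regions described here were called open in both mesoderm-containing control groups and in a single Tbx1 mutant library. ATAC-seq peaks, the intervals where a transposase inserts adapters into accessible DNA, had been called in each of 9 libraries of sorted GFP-positive cells, each from pooled Swiss Webster mouse embryos at E9.5. All peaks were merged where they overlapped by at least 1 bp on chromosomes 1 to 19 and X, which gave 73299 regions. A merged region was a member when it held a peak of all 3 Tbx1-Cre Ctrl libraries, all 3 Mesp1-Cre Ctrl libraries and exactly 1 of the 3 Tbx1-Cre cKO libraries. There were 1179 such members, against 17705 regions with a peak in all 6 control libraries. The members were chosen by the peak calls of the 9 libraries, so the presence or absence of a peak is a description here and not a result.

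Tbx1-Cre Ctrl cells came from Tbx1Cre;Rosa26-GFPflox/+ embryos, Tbx1-Cre cKO cells from Tbx1Cre/flox;Rosa26-GFPflox/+ embryos, and Mesp1-Cre Ctrl cells from Mesp1Cre;Rosa26-GFPflox/+ embryos. Both Cre alleles are knock-ins, so that the Tbx1-Cre Ctrl cells carried 1 functional copy of Tbx1 and the cKO cells lost the remaining copy where Cre was active. All embryos carried the Rosa26 GFP reporter, which marks every cell with a history of Cre activity. The Tbx1-Cre lineage covers mesoderm, endoderm and ectoderm of the pharyngeal apparatus, whereas the Mesp1-Cre lineage is mesodermal. The labels name pharyngeal apparatus and heart as the Mesp1-Cre tissue, with the back added for the Tbx1-Cre groups. The methods of the study describe the apparatus without the heart.

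Tbx1 encodes a T-box transcription factor of the pharyngeal mesoderm, where cells of the second heart field and the branchiomeric muscle lineage remain progenitors before they enter the heart tube or the arches. T-box factors bind DNA through a short half-site, and bHLH factors of mesoderm bind E-boxes. Distal open regions are often enhancers, whereas open regions at a transcription start site (TSS) are mostly promoters shared by many cell types.

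The following windows of 300 bp, centred on members and read from the plus strand of mm9, show the kinds of sequence in the set. Capitals mark a T-box half-site, searched as GGTGTGA, or an E-box, searched as CAGCTG, on either strand. The first 3 windows lie near genes of second heart field transcription factors and hold 1 E-box each: chr13:117285938-117286237 and chr13:117314063-117314362 near Isl1, and chr2:115686371-115686670 near Meis2. Hes1 chr16:30155950-30156249 holds 2 E-boxes close together. The window near Tbx1 itself, chr16:18602047-18602346, holds neither motif. The last pair, chr6:47617930-47618229 and chr6:47626575-47626874, has Ezh2 as its nearest gene. These windows hold 1 T-box half-site each and are shown because they are nearly identical to each other.
Isl1 distal 1: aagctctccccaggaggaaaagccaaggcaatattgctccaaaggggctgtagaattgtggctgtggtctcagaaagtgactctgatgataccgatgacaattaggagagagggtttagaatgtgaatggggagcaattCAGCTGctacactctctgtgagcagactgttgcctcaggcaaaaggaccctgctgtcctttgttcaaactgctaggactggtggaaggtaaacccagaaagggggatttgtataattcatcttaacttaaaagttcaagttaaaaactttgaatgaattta
Isl1 distal 2: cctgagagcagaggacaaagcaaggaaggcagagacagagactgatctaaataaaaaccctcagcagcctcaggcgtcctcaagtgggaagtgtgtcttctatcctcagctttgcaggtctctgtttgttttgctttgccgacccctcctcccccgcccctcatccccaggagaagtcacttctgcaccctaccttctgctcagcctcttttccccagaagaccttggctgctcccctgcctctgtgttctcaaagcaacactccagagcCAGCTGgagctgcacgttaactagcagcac
Meis2 distal: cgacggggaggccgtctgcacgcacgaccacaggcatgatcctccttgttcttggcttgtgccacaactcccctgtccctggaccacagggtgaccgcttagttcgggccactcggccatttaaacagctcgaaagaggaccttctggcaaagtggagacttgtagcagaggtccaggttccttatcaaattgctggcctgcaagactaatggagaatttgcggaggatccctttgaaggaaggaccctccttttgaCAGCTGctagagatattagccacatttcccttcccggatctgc
Hes1 distal: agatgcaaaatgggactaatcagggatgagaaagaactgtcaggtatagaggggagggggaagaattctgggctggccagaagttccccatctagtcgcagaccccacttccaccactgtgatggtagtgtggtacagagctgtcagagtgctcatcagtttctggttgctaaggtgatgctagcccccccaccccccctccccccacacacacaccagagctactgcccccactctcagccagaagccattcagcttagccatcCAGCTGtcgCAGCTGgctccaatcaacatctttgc
Tbx1 upstream: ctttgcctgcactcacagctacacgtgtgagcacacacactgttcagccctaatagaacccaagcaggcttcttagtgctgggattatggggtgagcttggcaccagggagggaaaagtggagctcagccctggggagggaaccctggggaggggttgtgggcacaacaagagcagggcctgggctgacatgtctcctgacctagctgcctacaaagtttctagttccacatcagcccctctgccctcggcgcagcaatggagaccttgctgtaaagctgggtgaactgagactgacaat
Ezh2 copy 1: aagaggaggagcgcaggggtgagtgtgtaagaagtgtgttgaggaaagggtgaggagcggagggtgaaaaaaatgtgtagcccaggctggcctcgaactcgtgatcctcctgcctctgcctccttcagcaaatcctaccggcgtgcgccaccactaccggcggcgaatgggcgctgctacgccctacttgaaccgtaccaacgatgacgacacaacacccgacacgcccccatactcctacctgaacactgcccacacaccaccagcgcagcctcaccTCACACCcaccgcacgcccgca
Ezh2 copy 2: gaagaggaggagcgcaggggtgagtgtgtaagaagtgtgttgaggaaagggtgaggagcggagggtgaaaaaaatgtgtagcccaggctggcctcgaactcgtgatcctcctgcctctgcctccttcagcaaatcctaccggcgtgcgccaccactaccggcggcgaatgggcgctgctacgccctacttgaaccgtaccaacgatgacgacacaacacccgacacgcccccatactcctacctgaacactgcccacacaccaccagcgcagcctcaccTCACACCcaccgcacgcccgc

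Peak lists differed in length, and the members have to be read against that. The Tbx1-Cre Ctrl lists held 43298 to 49490 peaks, the Mesp1-Cre lists 25485 to 42650 and the cKO lists 19772 to 29251. The longest Mesp1-Cre list is that of replicate 1, and its length is not among those the methods give for that group. Without this list 1216 regions met the rule, 22.5% of them within 1 kb of a TSS and 63.2% kept in cKO replicate 1. Read depth was not used here and is unknown, and DNA without a called peak need not be closed. In bulk samples, fewer cells of a type and weaker accessibility per cell cannot be told apart. At the TSS of 9 mesoderm marker genes, each Ctrl library held a peak at 8, the Mesp1-Cre libraries at 5 to 8 and the cKO libraries at 3 to 6. Peaks stood at the Isl1 and Mef2c TSS in all 9 libraries. Of 6 endoderm markers, the Ctrl libraries had a peak at 1 to 5, the Mesp1-Cre libraries at 1 to 3 and each cKO library at 1, Pax9. No cKO list held a TSS peak at the endoderm markers Foxa2, Sox17, Epcam, Cdh1 and Cldn6. Of 5 ectoderm and neural markers the cKO libraries had 1 or 2, against 3 or 4 in Ctrl and 2 or 3 in Mesp1-Cre. Of 6 endothelium and blood markers they had 1 or 2, against 2 or 3 in each control group, and Cdh5, Pecam1 and Gata1 had no peak in any library. The part of these differences in the results below was not tested.

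Of the 17705 regions with a peak in all 6 control libraries, 624 had no cKO peak, 1179 (6.66%) had a peak in exactly 1 cKO library and were the members, 2258 had a peak in 2 and 13644 in all 3. The same division made within the other groups gave smaller shares. Among 14927 regions with a peak in all Tbx1-Cre Ctrl and cKO libraries, 336 (2.25%) had a peak in exactly 1 Mesp1-Cre library. Among 13784 regions with a peak in all Mesp1-Cre and cKO libraries, 12 (0.0871%) had a peak in exactly 1 Ctrl library. Members made up between 4.62% (chromosome 5) and 8.42% (chromosome 14) of the regions with a peak in all 6 control libraries on each chromosome, and 26 members lay on chromosome X.

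**Figure D1:**
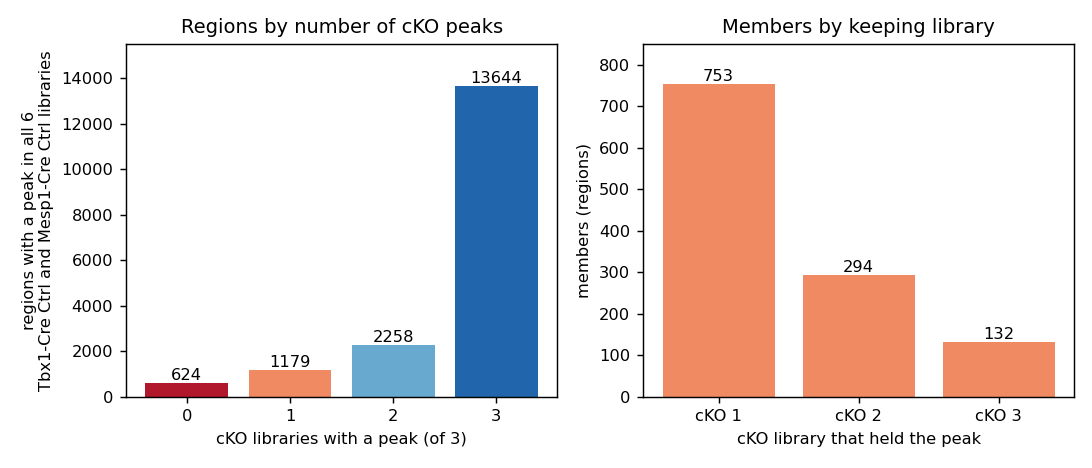
Left, regions that all 6 Tbx1-Cre Ctrl and Mesp1-Cre Ctrl libraries called (y axis, number) by the number of cKO libraries with a peak (x axis). Right, number of members by the cKO library that held their peak: 753 in replicate 1, 294 in replicate 2 and 132 in replicate 3.

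The single cKO peak came from replicate 1 in 753 members (63.9%), from replicate 2 in 294 (24.9%) and from replicate 3 in 132 (11.2%). This was also the order of the cKO list lengths, which held 29251, 24042 and 19772 peaks. The 3 cKO libraries had a peak in 93.0%, 88.2% and 82.1% of the 17705 regions. Regions with exactly 2 cKO peaks mirrored the order, since the missing peak was that of replicate 3 in 1491 of them, of replicate 2 in 574 and of replicate 1 in 193. With the 19762 widest peaks of every library, 176 members were left and replicate 1 held the peak in 39.2% of them. Outside the Mesp1-Cre set the order was similar: 1183 regions had a peak in all Ctrl libraries, in no Mesp1-Cre library and in exactly 1 cKO library, and replicate 1 held 69.3% of those, replicate 2 held 21.5% and replicate 3 held 9.21%.

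Kept cKO peaks were mostly narrow, and the shortest interval in the cKO lists was 200 bp. The median width of the kept peak was 302 bp in replicate 1, 267 bp in replicate 2 and 260.5 bp in replicate 3. Of the 1179 kept peaks, 121 (10.3%) were 200 bp long, and the widest was 935 bp. Within its own list the median kept peak stood at the 33.3rd, 25.2nd and 22.5th percentile of width, respectively. In regions with peaks of all 3 cKO libraries, the same libraries had median peaks at the 75.5th, 70.8th and 64.7th percentile. The kept peak was narrower than every Ctrl peak of its region in 743 members and wider than every one in 35, values given without a test because the cKO calls chose the members.

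A kept peak was counted wherever it fell in the merged region, so its position was examined next. In 1091 members (92.5%) it overlapped bases covered by all 3 Ctrl libraries, and in 250 (21.2%) it lay wholly inside them. In the other 88 members the Ctrl peaks shared no bases or the kept peak missed those they shared, as at Zeb2, Id3 and Efna5. Where a shared part existed, its median length was 325 bp, and the midpoints of the shared part and the kept peak were a median of 80.5 bp apart. The lists hold no signal below a call, so near misses were sought among called peaks only. A peak of another cKO library lay within 1 kb of 77 members (6.53%), and the median distance to such a peak was 16400 bp. The member with the widest kept peak of replicate 1, at chr11:106021589-106022652 over the Gm10840 TSS and a UTR exon of Limd2, had a peak of another cKO library 46 bp outside its edge. Its Ctrl peaks were 872, 638 and 589 bp wide, its Mesp1-Cre peaks 286, 287 and 278 bp and its cKO replicate 1 peak 935 bp.

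Members were next compared in the 6 libraries whose calls did not divide them from the other regions. Median peak width over the 1179 members was 551, 504 and 548 bp in the 3 Ctrl libraries and 527, 326 and 404 bp in the 3 Mesp1-Cre libraries. Mesp1-Cre replicate 1 lay among the Ctrl libraries and replicates 2 and 3 lay below all of them, so the groups overlapped. The means were 534 ± 26.3 bp in Ctrl and 419 ± 101 bp in Mesp1-Cre (SD, n = 3 each). The Ctrl mean was 115 bp higher, with a two-sided p of 0.2 in the exact permutation test, which cannot go below 0.1 with 3 libraries a group. On the scale of percentiles within each list the means were 54.0 ± 3.99 and 43.7 ± 11.8 (SD, n = 3 each), a difference of 10.2 points (exact two-sided permutation p = 0.3). The width difference was larger than the SD of either group, and the percentile difference was smaller than the SD of Mesp1-Cre. Without Mesp1-Cre replicate 1, which leaves 5 libraries, the differences were 173 bp and 17.2 points (exact two-sided permutation p = 0.2 for each). That p is the smallest these 5 libraries allow.

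Members were wider than regions with no cKO peak in 5 of 6 libraries and narrower than regions with 2 cKO peaks in 6 of 6. Against regions with no cKO peak, the median width percentile of members was 8.21, 3.81 and 3.48 points higher in the Ctrl libraries. It was 0.0, 1.13 and 3.59 points higher in the Mesp1-Cre libraries. The mean difference was 3.37 ± 2.83 points (SD, n = 6 libraries), with an exact two-sided sign-flip p of 0.0625. Against regions with 2 cKO peaks, the difference was -5.94, -7.77 and -6.86 points in the Ctrl libraries and -5.47, -6.12 and -6.63 points in the Mesp1-Cre libraries. Its mean was -6.47 ± 0.808 points (SD, n = 6 libraries), and its exact sign-flip p of 0.03125 is the smallest 6 libraries allow. After Benjamini-Hochberg adjustment over the 4 tests of peak width, both comparisons of regions had an adjusted exact p of 0.125. None of the 4 was under 0.05. The sign-flip takes the 6 libraries as units over the same fixed regions, so its p describes agreement among libraries only. Within 1 kb of a TSS lay 13.8%, 22.3% and 36.6% of regions with 0, 1 and 2 cKO peaks. Widths were not adjusted for position, and its part in these differences was not tested.

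**Figure D2:**
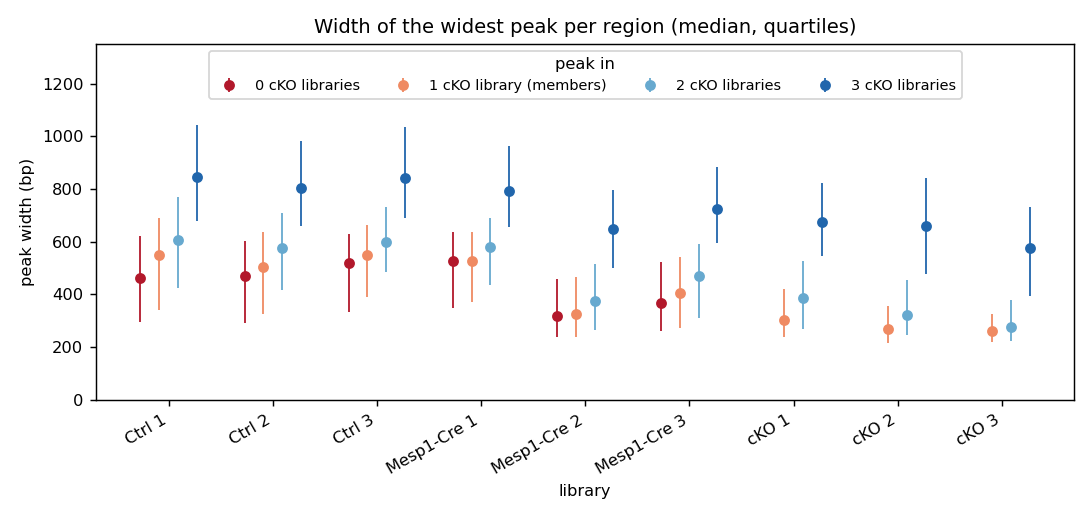
Width of the widest peak per region in bp (y axis) in each library (x axis), for regions with a peak in all 6 control libraries, coloured by the number of cKO libraries with a peak. Points are medians and lines run from the first to the third quartile; members, in orange, sit at 504 to 551 bp in the Ctrl libraries and at 260.5 to 302 bp in the cKO library that kept them.

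Most members lay away from promoters. Within 1 kb of a protein-coding TSS, measured from the midpoint, lay 263 members (22.3%, 95% Wilson interval 20 to 24.8), beside 21.6% of all 73299 merged regions. The share was 13.8% (11.3 to 16.7) of regions with no cKO peak, 36.6% (34.7 to 38.6) with 2 and 72.6% (71.9 to 73.4) with 3. These intervals cover counting error only. Read the other way, members were 916 of 6621 regions (13.8%) over 1 kb from a TSS and 263 of 11084 (2.37%) within 1 kb, among those with a peak in all 6 control libraries. The median distance to a TSS was 34445.5, 18148, 7870 and 165 bp for regions with 0, 1, 2 and 3 cKO peaks. At the midpoint, 560 members were intergenic (47.5%), 446 in an intron (37.8%), 59 in a coding exon (5.0%) and 114 in a UTR exon (9.67%).

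**Figure D3:**
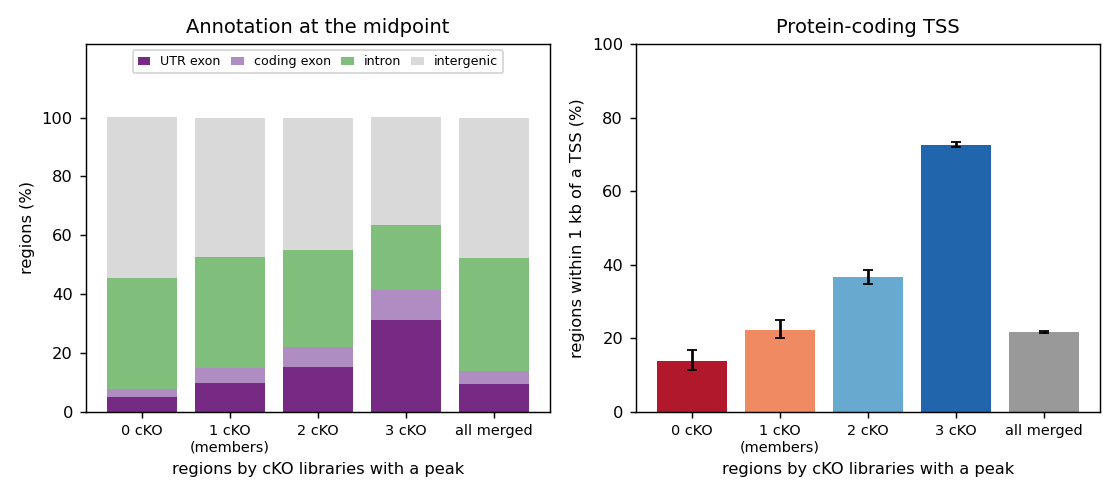
Left, share of regions (y axis, percent) with a UTR exon, coding exon, intron or intergenic sequence at the midpoint, by number of cKO libraries with a peak (x axis). Right, share of regions within 1 kb of a protein-coding TSS with 95% Wilson intervals, rising from 13.8% with no cKO peak over 22.3% in members to 72.6% with 3.

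Base composition followed the same order. Median GC content of the 300 bp window was 51.0%, 53.7%, 56.7% and 64.3% for regions with 0, 1, 2 and 3 cKO peaks, and 51.7% for all merged regions. Away from a TSS the medians were 50%, 52.3%, 53.3% and 55.7%. The observed to expected ratio of CpG in members was 0.677 within 1 kb of a TSS and 0.278 farther away. Members kept in different cKO libraries had overlapping intervals for position. The share within 1 kb of a TSS was 21.4% (18.6 to 24.5) for replicate 1, 23.5% (19 to 28.6) for replicate 2 and 25% (18.4 to 33.0) for replicate 3, and their median GC content was 53.7%, 54.3% and 54.5%.

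Letters of 20 motifs were counted on both strands of the 300 bp windows. The T-box half-site GGTGTGA was found in 48 members (4.07%, 95% Wilson interval 3.08 to 5.36), beside 3.85% of all merged regions. Its share was 2.40%, 3.90% and 2.72% in regions with 0, 2 and 3 cKO peaks. The interval of the members included the share of all merged regions. Over 1 kb from a TSS the half-site was in 4.15% of members and 4.22% of all merged regions. With 0, 2 and 3 cKO peaks that distal share was 2.60%, 4.26% and 4.04%. Of those 48 members 10 lay within 1 kb of a TSS, and their nearest genes numbered 46.

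The E-box CAGCTG was the most frequent of the 20 motifs in distal members. It was in 33.3% of members over 1 kb from a TSS (95% Wilson interval 30.3 to 36.4) and in 25.2% of all such merged regions. In regions with 0, 2 and 3 cKO peaks the distal share was 33.5%, 28.3% and 25.3%. It was 33.8%, 31.6% and 34.3% in the distal members kept in cKO replicates 1, 2 and 3. The MEIS letters TGACAG were in 30.3% of distal members and 26.5% of all distal regions, and in 32.0%, 25.9% and 21.1% of those with 0, 2 and 3 cKO peaks. The GATA letters AGATAA were in 13.6% of distal members, fewer than the 20.6% of regions with no cKO peak and equal to the 13.6% of those with 2. Their share of all distal regions, 15%, lay inside the Wilson interval of the distal members. SP/KLF letters GGGCGG, which are rich in G and C, were in 22.7% of distal members and 12.1% of all distal regions. The distal share was 14.1% with no cKO peak, 23.1% with 2 and 33.7% with 3. CAGCTG and CATCTG differ by a single letter and cannot match the same bases, while a match of any of these letters is a description and not a binding site.

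**Figure D4:**
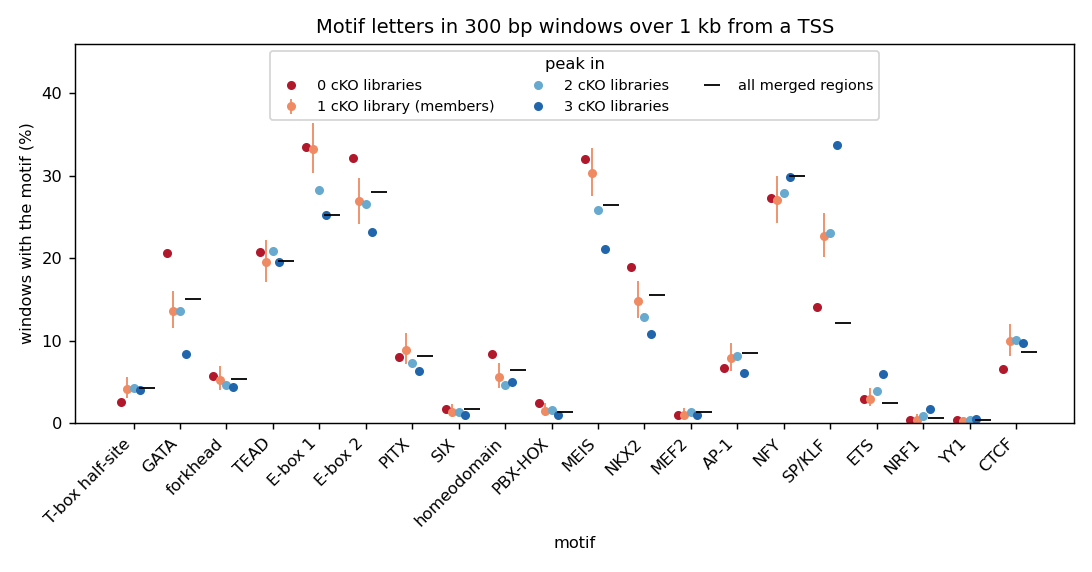
Share of 300 bp windows over 1 kb from a TSS that hold the letters of each motif (y axis, percent) for 20 motifs (x axis; E-box 1 is CAGCTG and E-box 2 is CATCTG), by number of cKO libraries with a peak. Lines on the members are 95% Wilson intervals; the CAGCTG share of members, 33.3%, sits above that of all distal merged regions, 25.2%, drawn as a black dash.

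Members were assigned to the protein-coding gene with the nearest TSS. They fell to 1077 genes, or 4.85% of 22202 protein-coding genes. Of these genes 987 had 1 member, 81 had 2, 6 had 3 and 3 had 4. Of the 90 genes with 2 or more members, 36 had all of them kept in the same cKO library. A region within 1 kb of the TSS was open in all 9 libraries at 424 of the 838 genes with a distal member (50.6%), beside 49.8% of the 4471 genes with a distal region shared by all 6 control libraries. The share of genes with a distal member was close to that background.

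At the Tbx1 locus itself, 1 member lay 14084 bp from the nearest Tbx1 TSS, in intergenic sequence at chr16:18601410-18602983. Its Ctrl peaks were 779, 738 and 685 bp wide, its Mesp1-Cre peaks 268, 385 and 264 bp and its cKO replicate 1 peak 273 bp. Ctrl peaks were wider than every other peak of the region. The other 2 Tbx1 regions with a peak in all 6 control libraries had a peak in all 3 cKO libraries. The lists hold no reads of the floxed exon, so the deletion was not examined here. Among 17 T-box genes, only Eomes, a T-box factor of early mesoderm, had another member: it lay over a coding exon at chr9:118387587-118388603, 116 bp from the TSS. Its Ctrl peaks measured 567, 605 and 290 bp and its Mesp1-Cre peaks 787, 437 and 268 bp, beside 221 bp in cKO replicate 3. The 21 regions of T-box genes with a peak in all 6 control libraries split into 4, 2, 4 and 11 with 0, 1, 2 and 3 cKO peaks. Members were 9.52% of these regions, beside 6.66% over all genes. Among the 13 distal ones the share was 7.69% (Wilson interval 1.37 to 33.3), an interval that includes the 13.8% over all genes. By gene, 11.8% of T-box genes had a member, beside 4.85% of all genes.

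Second heart field and cardiac transcription factor genes had 12 members at 7 of 22 genes, out of 55 regions with a peak in all 6 control libraries. That is 21.8% of their regions, beside 6.66% over all genes. These genes have many distal regions, and among distal regions alone members were 10 of 41 (24.4%, 95% Wilson interval 13.8 to 39.3), beside 13.8% over all genes. The interval begins at that share, and it treats regions of the same gene as independent. Isl1, a LIM homeodomain gene of second heart field progenitors, and Meis2, a TALE homeodomain gene, had 3 members each, and Hand2, a bHLH gene of the heart and arches, had 2. Hopx, Mef2c and Gata5 were among the genes with 1.

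All 3 Isl1 members were kept in cKO replicate 1, at 12085, 186192 and 214317 bp from the TSS. Nearest to the gene, chr13:117087466-117088155 had Ctrl peaks of 463, 626 and 377 bp, Mesp1-Cre peaks of 589, 495 and 582 bp and a cKO peak of 200 bp, which missed the bases shared by the Ctrl libraries. The region at chr13:117285781-117286395 had Ctrl peaks of 324, 535 and 507 bp, Mesp1-Cre peaks of 475, 337 and 398 bp and a cKO peak of 355 bp. Farthest away, chr13:117313885-117314541 had Ctrl peaks of 454, 491 and 469 bp, Mesp1-Cre peaks of 212, 311 and 275 bp and a cKO peak of 436 bp. Only in this last region did every Ctrl peak exceed every Mesp1-Cre peak. The 2 remaining Isl1 regions of all control libraries had peaks in all 3 cKO libraries, among them the region at the TSS.

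All 3 Meis2 members were kept in cKO replicate 2. The region at chr2:115686104-115686938 lay 12158 bp from the TSS in intergenic sequence, and chr2:115836102-115836776 lay in an intron. Ctrl peaks at the intergenic region were 273, 455 and 679 bp wide, Mesp1-Cre peaks 478, 356 and 535 bp, and the cKO peak 213 bp. The intronic region had Ctrl peaks of 249, 640 and 487 bp, Mesp1-Cre peaks of 675, 210 and 235 bp and a cKO peak of 200 bp. Ctrl and Mesp1-Cre widths overlapped at both. Another cKO library had a peak 281 bp from the intergenic region and 965 bp from the intronic one.

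The Hopx member lay over the TSS at chr5:77543847-77544536, with Ctrl peaks of 528, 591 and 482 bp, Mesp1-Cre peaks of 585, 656 and 601 bp and a cKO replicate 1 peak of 200 bp. Hopx encodes an atypical homeodomain protein of cardiac progenitors. At Hand2 the region over the TSS, in a UTR exon, was kept in cKO replicate 2, and the region 7718 bp away was kept in cKO replicate 1. Widths at the latter were 304, 646 and 260 bp in Ctrl, 646, 328 and 684 bp in Mesp1-Cre and 578 bp in cKO replicate 1. The kept peak there lay within the range of both control groups.

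**Figure D5:**
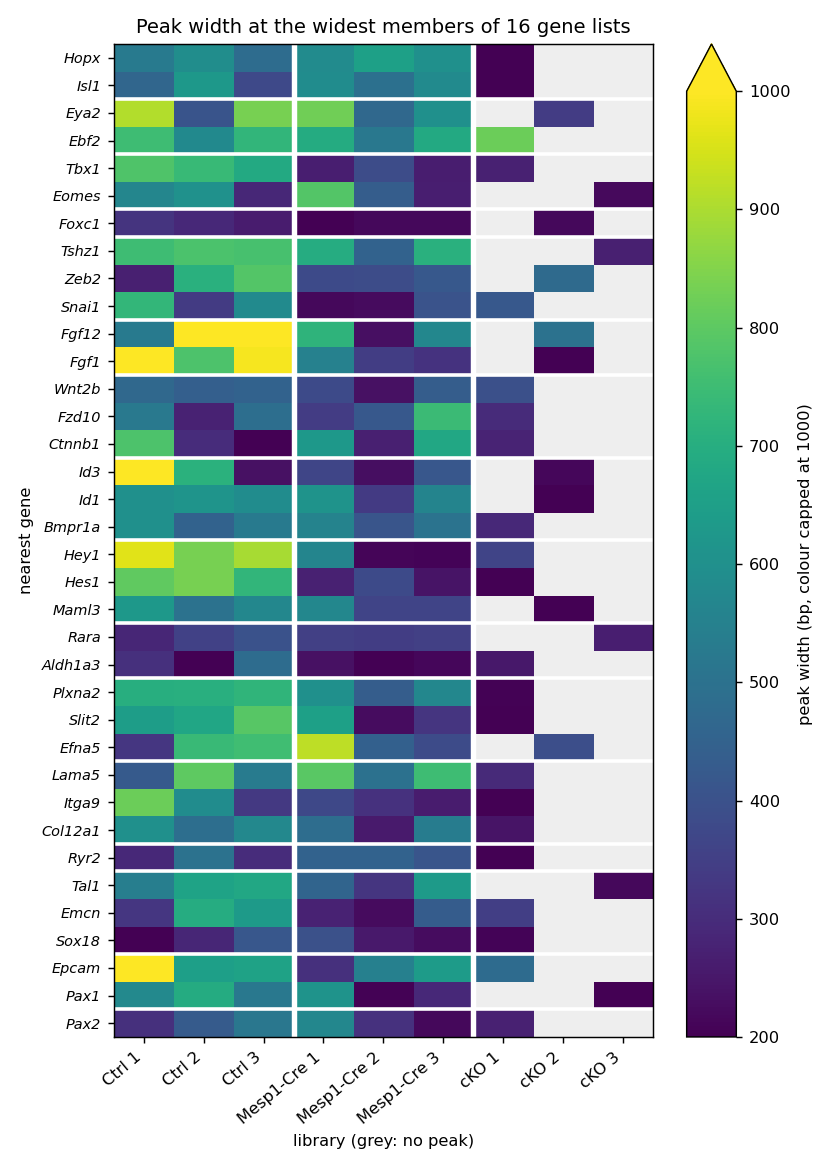
Width in bp (colour, capped at 1000) of the widest peak in each of 9 libraries (columns) at up to 3 members (rows, nearest gene) for each of 16 gene lists, divided by white lines. Each row has 6 control peaks and 1 cKO peak, as the rule requires; grey marks no peak, and the colours show that kept cKO peaks such as the 200 bp ones at Hopx, Isl1 and Hes1 are mostly narrower than the Ctrl peaks, with Ebf2 (821 bp) as an exception.

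Branchiomeric muscle regulators had 5 members at 5 of 21 genes, all over 1 kb from a TSS. That is 12.2% of their 41 regions, beside 6.66% over all genes, and 19.2% of their 26 distal regions (95% Wilson interval 8.51 to 37.9), beside 13.8%. Ebf2, the gene of a helix-loop-helix factor, had the widest kept peak among all named list members. In its intron, at chr14:67890757-67891606, Ctrl peaks were 751, 581 and 728 bp wide, Mesp1-Cre peaks 691, 521 and 685 bp and the cKO replicate 1 peak 821 bp. The nearest peak of another cKO library was 27294 bp away. Eya2, the gene of a coactivator for homeodomain factors, had a member at chr2:165478700-165479611 with Ctrl peaks of 909, 408 and 835 bp, Mesp1-Cre peaks of 827, 469 and 600 bp and a cKO replicate 2 peak of 342 bp. Ctrl and Mesp1-Cre widths overlapped at both. Pitx1 and Lhx2 had 1 member each.

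Notch pathway genes had 6 members at 5 of 21 genes. Members were 14.3% of their regions against 6.66% over all genes, and 16.1% of their distal regions (95% Wilson interval 7.09 to 32.6) against 13.8%. The genes were the targets Hey1 and Hes1, the ligand genes Jag1 and Jag2 and the coactivator gene Maml3. Hey1 had 2. At the wider one the Ctrl peaks were 965, 835 and 896 bp wide, the Mesp1-Cre peaks 564, 212 and 207 bp and the cKO replicate 1 peak 364 bp. At the Hes1 member, chr16:30155665-30156535, Ctrl peaks were 805, 837 and 727 bp wide, Mesp1-Cre peaks 274, 381 and 241 bp and the cKO replicate 1 peak 200 bp. In both regions every Ctrl peak was wider than every Mesp1-Cre peak. At Maml3 the Ctrl peaks were 626, 503 and 571 bp wide, the Mesp1-Cre peaks 571, 363 and 365 bp and the cKO replicate 2 peak 200 bp.

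BMP and TGF-beta pathway genes had 6 members at 5 of 34 genes, all distal. Their share was 8.96% of the list's regions and 15.4% of its distal regions (95% Wilson interval 7.25 to 29.7), near the 6.66% and 13.8% over all genes. The type I receptor genes Bmpr1a and Acvr1 had an intronic member each. Id1, Id2 and Id3, targets of BMP signalling that encode inhibitors of bHLH factors, had the other 4. The Id2 member lay 319312 bp from the TSS. At the wider Id1 member, 3289 bp away at chr2:152564956-152565596, Ctrl peaks were 603, 613 and 589 bp wide, Mesp1-Cre peaks 611, 337 and 561 bp and the cKO replicate 2 peak 200 bp. Id3 showed a large spread among Ctrl libraries, with peaks of 1254, 712 and 235 bp, Mesp1-Cre peaks of 368, 230 and 416 bp and a cKO replicate 2 peak of 215 bp. Its kept peak overlapped no bases covered by all 3 Ctrl libraries. The Bmpr1a member had Ctrl peaks of 602, 451 and 526 bp, Mesp1-Cre peaks of 557, 410 and 506 bp and a cKO replicate 1 peak of 291 bp.

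FGF and Wnt pathway genes had 3 members each. Of 32 FGF genes, the ligand gene Fgf1 and Fgf12, which encodes an FGF homologous factor, had all 3. The Fgf12 member 1450 bp from the TSS had Ctrl peaks of 525, 1228 and 1214 bp, Mesp1-Cre peaks of 719, 234 and 569 bp and a cKO replicate 2 peak of 500 bp. The Fgf1 member had Ctrl peaks of 1035, 777 and 989 bp, Mesp1-Cre peaks of 553, 346 and 318 bp and a cKO replicate 2 peak of 200 bp. Of 45 Wnt pathway genes, the ligand gene Wnt2b, the receptor gene Fzd10 and Ctnnb1, the gene of beta-catenin, had 1 member each. All 3 were kept in cKO replicate 1, which kept 63.9% of all members. The Fzd10 member lay 58611 bp from the TSS, and the Ctnnb1 member lay 124033 bp away in an intron of Ulk4. Among the 70 Wnt pathway regions of all control libraries members were 4.29%, and among the 52 FGF regions 5.77%, beside 6.66% over all genes. By gene, 6.67% of Wnt and 6.25% of FGF genes had a member, beside 4.85% of all genes. Wnt2b, the most even of the 3, had Ctrl peaks of 469, 441 and 451 bp, Mesp1-Cre peaks of 381, 237 and 435 bp and a cKO peak of 396 bp.

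Retinoic acid pathway genes had 2 members among 20 regions (10.0%, beside 6.66% over all genes), both distal (15.4% of 13 distal regions, beside 13.8%). They lay in an intron of the receptor gene Rara and 22952 bp from Aldh1a3, the gene of a retinaldehyde dehydrogenase. Rara peaks were 287, 354 and 401 bp wide in Ctrl, 353, 344 and 350 bp in Mesp1-Cre and 266 bp in cKO replicate 3. Forkhead genes of mesoderm had 1 member among 36 regions (2.78%, beside 6.66%), or 3.7% of their 27 distal regions, beside 13.8%. It lay in an intron of Gmds, 186048 bp from Foxc1, and was narrow in every library, from 200 to 320 bp. Mesenchyme transcription factor genes had 6 members (11.1% of 54 regions, and 12.8% of distal ones), 1 each at Nr2f2, Osr1, Snai1, Sox9, Tshz1 and Zeb2. Over all genes these shares were 6.66% and 13.8%. At Tshz1, a zinc finger gene, Ctrl peaks were 753, 773 and 767 bp wide, Mesp1-Cre peaks 695, 452 and 708 bp and the cKO replicate 3 peak 270 bp. The Ctrl peaks there were the most alike among the named members of that list. At Zeb2, a repressor gene of epithelial identity, they were 269, 708 and 786 bp, the Mesp1-Cre peaks 381, 385 and 419 bp and the cKO replicate 2 peak 475 bp.

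Guidance and migration genes had 11 members at 10 of 34 genes. Of these 11, 8 were kept in cKO replicate 1, which kept 63.9% of all members. Members were 13.4% of the list's regions, beside 6.66% over all genes. Among its distal regions the share was 17.0% (95% Wilson interval 9.2 to 29.2), an interval that includes the 13.8% of all distal regions. The semaphorin receptor gene Plxna2 had an intronic member with Ctrl peaks of 701, 704 and 722 bp, Mesp1-Cre peaks of 601, 436 and 570 bp and a cKO replicate 1 peak of 206 bp. Slit2, a ligand gene for Robo receptors, was the nearest gene to a member 708928 bp away, with Ctrl peaks of 646, 672 and 792 bp, Mesp1-Cre peaks of 656, 225 and 323 bp and a cKO replicate 1 peak of 200 bp. At Plxna2 every Ctrl peak was wider than every Mesp1-Cre peak, and at Slit2 Mesp1-Cre replicate 1 overlapped Ctrl. The Aplnr member, 42 bp from the TSS of this receptor gene, had Ctrl peaks of 563, 303 and 584 bp, Mesp1-Cre peaks of 200, 215 and 309 bp and a cKO replicate 1 peak of 300 bp. Matrix and integrin genes had 7 members (12.1% of 58 regions, and 12.5% of distal ones), at Col12a1, Col13a1, Col2a1, Itga9, Lama4, Lama5 and Vcan. Over all genes these shares were 6.66% and 13.8%. At Col12a1, a fibril-associated collagen gene, Ctrl peaks were 602, 489 and 573 bp wide, Mesp1-Cre peaks 486, 259 and 537 bp and the cKO replicate 1 peak 243 bp.

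Lists of other cell types had 1 to 3 members each, with shares on either side of the 6.66% over all regions. Members were 7.69% of the 13 regions of cardiac sarcomere genes and 9.09% of the 33 of endothelial and blood progenitor genes. They were 13.3% of the 15 regions of pharyngeal endoderm genes and 5.26% of the 19 of ectoderm, placode and neural crest genes. Among distal regions the shares were, in the same order, 14.3%, 12.5%, 9.09% and 6.25%, beside 13.8% over all genes. Cardiac sarcomere genes had 1 member, in an intron of the calcium channel gene Ryr2. Endothelial and blood progenitor genes had 3 members at Emcn, Sox18 and Tal1, pharyngeal endoderm genes had 2 at Epcam and Pax1, and ectoderm, placode and neural crest genes had 1 near Pax2. The member nearest to Epcam, an epithelial adhesion gene, lay 64445 bp away and had Ctrl peaks of 1052, 653 and 662 bp, Mesp1-Cre peaks of 310, 549 and 639 bp and a cKO replicate 1 peak of 480 bp. Every Ctrl peak in this region was wider than every Mesp1-Cre peak. Near Tal1, a bHLH gene of blood and endothelial progenitors, Ctrl peaks were 541, 665 and 680 bp wide, Mesp1-Cre peaks 457, 323 and 635 bp and the cKO replicate 3 peak 216 bp.

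Genes with the most members were Ppap2b, Rgs3 and Zfp608, with 4 each, followed by Ezh2, Isl1, Meis2, Nfib, Prex1 and Ssbp3 with 3. Ties were all kept, so the list runs past 5 genes. The 4 Ppap2b members, near the gene of a lipid phosphatase, lay 49777 to 309638 bp from the TSS, and 3 of them were kept in cKO replicate 2. The farthest had Ctrl peaks of 633, 732 and 656 bp, Mesp1-Cre peaks of 402, 225 and 202 bp and a cKO peak of 232 bp. Of 8 Ppap2b regions with a peak in all control libraries, 1 had no cKO peak, 1 had 2 and 2 had 3. Zfp608, a zinc finger gene, had 14 such regions, which split into 2, 4, 4 and 4 with 0, 1, 2 and 3 cKO peaks. At Rgs3, a regulator of G protein signalling, members lay 124, 8000 and 55 bp from a TSS and 80017 bp away, and each of the 3 cKO libraries kept at least 1. The 3 members of Prex1, a Rac activator gene, and the 3 of Ssbp3, a cofactor gene of LIM homeodomain complexes, were all kept in cKO replicate 1. That library kept 63.9% of all members.

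The 3 Ezh2 members need a separate reading. They lay between 68482 and 81385 bp from the TSS at chr6:47613543-47614100, chr6:47617760-47618399 and chr6:47626424-47627025, and the windows of the last 2, printed above, have an identical run of 299 bases. The first shares runs of 222 and 221 bases with them. Ctrl peaks in these regions were 255 to 411, 222 to 395 and 389 to 457 bp wide in replicates 1, 2 and 3. Reads of such copies are hard to place uniquely, and they contribute 3 of the 48 windows with a T-box half-site. In all, 18 members had a window that shared at least 50 bases with another member's window on either strand. Gm14440, Gm4631, Gm8923, Gm14308 and Gm14295 on chromosome 2 were among their nearest genes, as were the vomeronasal receptor genes Vmn1r3 and Vmn2r25 and, with a run of 66 bases, Snai1.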

How the data were processed

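According to the methods and the submitters' processing notes, the authors trimmed adapters with cutadapt, aligned reads to mm9 with Bowtie2 2.3.4.3, used only concordant read pairs with 1 placement, without PCR duplicates or mitochondrial reads, and called peaks with MACS2 in each library separately. The deposited lists hold a chromosome, start and end in bp per peak, with no score or height. Starts of the Mesp1-Cre lists were lowered by 1 bp, since their shortest interval was 199 bp as deposited and 200 bp in the other lists. Peaks were merged, annotated with GENCODE M1 on NCBIM37 (mm9) and assigned to the nearest protein-coding TSS. The value per region and library was the width of the widest peak. The 3 against 3 comparisons used exact permutation tests, and sets of regions were compared by an exact sign-flip over 6 libraries. Replicates are separate libraries of pooled embryos, and same-numbered Ctrl and Mesp1-Cre libraries come from different crosses.

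The members, gene lists, motifs and tests were chosen with earlier results of these data known. Named genes were, per list, up to 3 with the widest mean Ctrl peak at a member, the genes with the most members, and the widest kept peak of a cKO library. Other members of a list are named from their values. Some members that this rule names are not reported here. Python 3.11.15, numpy 2.4.6, pandas 2.3.3, scipy 1.17.1 and matplotlib 3.10.9 were used. The merging, counting and tests were tested on simulated data. Of the 6 ectoderm markers chosen, 5 matched the annotation by symbol.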

Additional observations from a re-analysis of the deposited data

How the results depend on the processing

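In all, 22 other settings gave 128 values. Of these, 98 kept their direction and side of 0.05, or stayed within the interval or 1.5 times the count. For Ctrl minus Mesp1-Cre width, and again for its percentile, all 17 values counted as kept. Their exact p could not fall under 0.1 in any setting, so only a change of direction could have been seen there. The setting with starts as deposited was added after the data were seen and changed none. The count of members was 176 when every list was cut to the same number of its widest peaks, and 1216 to 2571 without each library in turn, the highest without cKO replicate 2, where exactly 1 of the other two cKO libraries was asked for. It was 2492 without cKO replicate 1, 1815 without cKO replicate 3 and 2000 without Mesp1-Cre replicate 2. The share kept in cKO replicate 1 was 39.2% with equal numbers and 63.0% to 65.5% without a control library. It was 87.4% without cKO replicate 2 and 73.1% without cKO replicate 3, where the rule changes in the same way. The share within 1 kb of a TSS was 35.8% with the widest 75% of each list and 34.1% with equal numbers. It was 24.9% where the cKO peak had to overlap bases shared by Ctrl, 26.8% with TSS of any gene and 26.7% within 2.5 kb. Without a control library it was 20.8% to 22.9%, and without a cKO library, under the changed rule, 26.7% to 34.2%. The T-box half-site share was 11.7% over whole regions and 17.0% with GTGTGA. The cause of these moves was not tested, apart from the wider search that some settings make by construction.

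Members minus regions with no cKO peak passed 0.05 with 3.34 points when peaks up to 100 bp apart were merged. The same held for 3.43 points on autosomes and 4.54 points under the Ctrl overlap, all at an exact sign-flip p of 0.03125. The difference ranged from 2.5 to 5.01 points without a control library. Without a cKO library it ranged from 5.05 to 7.57 (exact sign-flip p = 0.03125 for each), but there both sets are defined by the 2 cKO libraries left. Members minus regions with 2 cKO peaks ranged from -27.0 to -6.89 without single libraries: from -7.65 to -6.89 without a control library, and from -27.0 to -25 without a cKO library, where 2 cKO peaks means a peak in every cKO library left, which is another contrast. It missed 0.05 without each Ctrl or Mesp1-Cre library because 5 libraries cannot give an exact p under 0.0625. Ctrl minus Mesp1-Cre width ranged from 89.8 to 173 bp and its percentile from 7.33 to 17.2 points without single libraries. That percentile difference was 0.428 points with equal numbers (exact permutation p = 0.8), and the width difference 136 bp (exact permutation p = 0.1). With the replicate block the paired differences were 115 bp and 10.2 points (exact sign-flip p = 0.25, the smallest 3 pairs allow). Deviations of same-numbered Ctrl and Mesp1-Cre libraries correlated at 0.0239, 0.0171 and 0.0166 over 17705 regions, so the numbers were not taken as pairs, although each library correlated best with its own number. Read depth is unknown and limits every absence of a peak.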
